A study of Rattus norvegicus with 15 samples.

Results

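The insulin-like growth factor (IGF) system was followed in rat mesenteric arteries through the probe sets of its ligands Igf1 and Igf2, its receptor Igf1r and its binding proteins Igfbp1 to Igfbp6. Members were all probe sets whose symbol in the array annotation was exactly 1 of these 9 genes, which gave 23 of 8740 probe sets, for 8 of the 4736 genes named on the array. Igfbp4 had no probe set under its own symbol in that annotation. Of the 23, 18 probe sets of 7 genes were bright enough to be tested, among 6512 in all. The 5 that did not pass were 2 of the 6 Igf2 probe sets, the single Igfbp1 probe set, 1 of 3 for Igfbp2 and 1 of 3 for Igfbp5.

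The series asks which molecular differences go with poorer growth of collateral arteries in the SHR strain, the spontaneously hypertensive rat, which was bred for high blood pressure. Its comparison is the WKY strain, Wistar Kyoto rats with normal pressure. Collateral arteries were mesenteric arteries left to carry extra flow after their neighbours had been occluded, and control arteries were vessels of the same bed without that stimulus. The groups were 4 arrays of SHR collateral arteries, 4 of SHR control arteries, 4 of WKY collateral arteries and 3 of WKY control arteries, 15 in all, each giving 1 MAS5 signal per probe set, the array maker's summary of brightness on a linear scale. The labels give no age, sex or time after occlusion, nor say if each array stands for a different animal, so a p-value measures only the spread between these samples. SHR and WKY are separate inbred strains, and strain and blood pressure cannot be told apart. In whole arteries, fewer cells of a type and less RNA per cell cannot be told apart either.

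IGF-1 and IGF-2 are peptides related to insulin that act through the IGF-1 receptor, a tyrosine kinase that signals by way of receptor substrates to the PI3K and Akt branch and to the Ras and MAP kinase branch. The IGF binding proteins hold most of the ligand outside cells, where they can shield it from the receptor or release it near the cell surface when proteases cut them. In the artery wall IGF-1 is known for driving growth, migration and survival of smooth muscle cells, and smooth muscle cells and fibroblasts make both ligand and binding proteins.

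Each array had been scaled to the same overall level: after trimming 2%, its mean signal lay between 999.85 and 999.87. The array SHR collateral 3 stood apart. Its Spearman correlation with the other 14 arrays over the tested probe sets was 0.496 to 0.657, against 0.805 to 0.931 among those 14. At the 20th percentile its signal was 171.2, where the others had 43.4 to 83.3, and the mean of 9 spike-in control probe sets was 354583, against 26654 to 130880. Differences of single IGF and pathway probe sets that use collateral arteries of SHR are therefore, for the most part, also given without it. Values of the cell type markers and counts over the pathway lists are not. As a check of the tissue, 8 of 10 smooth muscle marker genes were on the array, and their summed signal ran from 100992 to 515916 in SHR collateral, 200858 to 415929 in SHR control, 300764 to 488207 in WKY collateral and 275786 to 405321 in WKY control arteries.

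By mean log2 signal, every tested probe set of Igf1 (5), Igfbp3 (2), Igfbp5 (2) and Igfbp6 (1) read higher in SHR than in WKY arteries in both vessel types. So did 1 of 4 for Igf2, 1 of 2 for Igf1r and 1 of 2 for Igfbp2, whereas 1 Igf2 probe set read lower in SHR in both and 4 probe sets were mixed. To be tested, a probe set needed a signal at or above the array's 40th percentile on 3 or more arrays. Igfbp3 rc_AI009405_s_at had it on 2 SHR collateral, 2 SHR control, 1 WKY collateral and 0 WKY control arrays. In the same order, Igfbp5 M62781_at had it on 1, 1, 0 and 1, and Igf2 E00988mRNA_s_at on 1, 2, 1 and 1. Their WKY arrays alone would not have met this rule, so their direction is not independent of the filter. Of the 13 higher in both, 8 kept that sign in both vessel types whichever array was left out: 4 for Igf1, 2 for Igfbp3 and 1 each for Igfbp5 and Igfbp6. The Igf2 probe set that read lower kept its sign too. How many of all tested probe sets read higher in both vessel types, or kept their sign, was not counted. None of these differences passed the adjustment over all 6512 probe sets, so what follows describes sizes, spread and order. In control arteries, limma called 0 of the 18 IGF probe sets at an adjusted p under 0.05, against 0.0307% of all tested probe sets. At an unadjusted p under 0.05 there were 5, or 27.8%, against 6.46% of all. Groups did not overlap for 6 of them, or 33.3%, against 8.57% of all, with SHR above WKY in 5 and below in 1. In collateral arteries limma called 0 of 18, against 0% of all, and 2, or 11.1%, were at an unadjusted p under 0.05, against 7.62% of all. The groups did not overlap for 1 of 18, against 3.62% of all. The median log2 difference of the 18, SHR minus WKY, was 0.75 in control arteries and 0.56 in collateral arteries, where over all tested probe sets it was 0.02 and 0.12. Without SHR collateral 3 the collateral median of the 18 was 0.16, against 0.01 over all, with 4 at an unadjusted p under 0.05 (22.2%, against 5.21% of all) and 2 without overlap (against 5.94% of all). Several probe sets report the same gene, so these counts are not counts of independent genes. With arrays set to equal medians in place of the deposited scaling, each strain difference was lower by 0.24 in collateral and by 0.037 in control arteries, and each collateral minus control difference in SHR was lower by 0.18. None of the 16 IGF differences at an unadjusted p under 0.05 in any comparison changed sign under the alternatives tried. These 16 were picked by that p in the same data, so a sign change was unlikely beforehand.

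Igf1, which encodes the ligand IGF-1, had 5 tested probe sets, and each had a higher mean log2 signal in SHR than in WKY arteries, in collateral as in control vessels. Probe set M15481_g_at read 10770.3, 3389.8, 5256 and 10676 in SHR collateral arteries and 12618, 7855, 12944 and 6162 in SHR control arteries, against 6646, 5005, 1816 and 2877 in WKY collateral arteries and 8483, 4412 and 3337 in WKY control arteries. In log2 units its mean was 12.72 ± 0.82 in SHR collateral arteries (SD, n = 4) and 13.20 ± 0.53 in SHR control arteries (SD, n = 4), against 11.83 ± 0.83 in WKY collateral arteries (SD, n = 4) and 12.29 ± 0.69 in WKY control arteries (SD, n = 3). The highest SHR arrays exceeded every WKY array, while 4 of 8 SHR arrays lay within the WKY range. The difference between strains was 0.92 ± 0.48 (SE) in control arteries (adjusted p = 0.820) and 0.89 ± 0.44 in collateral arteries (adjusted p = 0.647), or 1.01 in collateral arteries without SHR collateral 3. Leaving out WKY collateral 3, the lowest array, gave 0.56.

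The Igf1 probe set X06107_i_at separated the strains completely. It read 1392, 853, 2387 and 947 in SHR collateral arteries and 1829, 864, 1160.0 and 1363 in SHR control arteries, against 665, 479, 114 and 633 in WKY collateral arteries and 746, 797 and 424 in WKY control arteries. All 8 SHR arrays lay above all 7 WKY arrays. The log2 difference was 1.72 ± 0.50 in collateral arteries (adjusted p = 0.367), 3.29-fold, and 0.99 ± 0.54 in control arteries (adjusted p = 0.833). Without SHR collateral 3, the highest array, the collateral difference was 1.42, and without WKY collateral 3, the lowest, it was 1.13. The suffix _i marks a probe set for which the array's maker could not place the full number of unique probes, and _r one for which its selection rules were relaxed.

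Probe set D00698_s_at for Igf1 read 700.4, 509, 197 and 517 in SHR collateral arteries and 769.7, 480.5, 477 and 815 in SHR control arteries, against 315, 254, 178 and 384 in WKY collateral arteries and 410.4, 336 and 129 in WKY control arteries. In control arteries all 4 SHR arrays were above the 3 WKY arrays, and the log2 difference was 1.24 ± 0.51 (adjusted p = 0.683), or 0.73 without WKY control 3, the lowest of them. In collateral arteries SHR collateral 3 read below 3 of the 4 WKY arrays and the groups overlapped, with a log2 difference of 0.68 ± 0.48 (adjusted p = 0.710), or 1.07 without that array. The remaining Igf1 probe sets had wider overlap. X06107_r_at differed by 0.91 ± 0.54 in control and 0.74 ± 0.50 in collateral arteries (0.77 without SHR collateral 3), with SHR control arrays at 3520 and 1993 and an SHR collateral array at 2368 above the other 12. The control difference was 0.42 without SHR control 1, and the collateral difference 0.36 without SHR collateral 4. M15481_at differed by 1.07 ± 0.80 in control and 0.53 ± 0.74 in collateral arteries, and by -0.17 in collateral arteries without SHR collateral 3. Over the 15 arrays, the 10 pairs of Igf1 probe sets had Spearman correlations of 0.10 to 0.757, with a median of 0.504. These describe arrays that share strain, vessel and array quality.

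**Figure D1:**
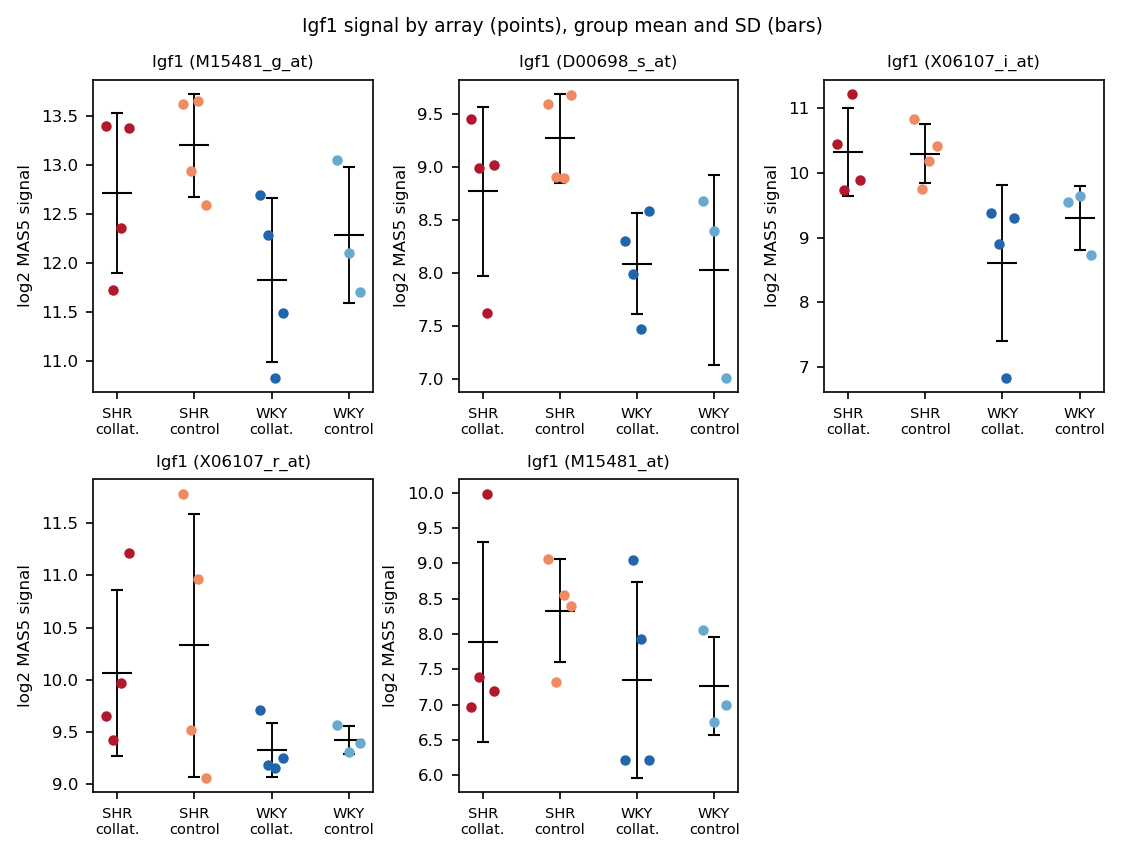
Log2 MAS5 signal (vertical axis) of the 5 Igf1 probe sets in the 4 groups (horizontal axis), with 1 point per array and bars for the mean and SD. For X06107_i_at, all 8 SHR arrays lie above all 7 WKY arrays. Taken over both vessel types the strains overlap in the other panels, and for X06107_r_at and M15481_at single arrays lie far above their group.

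Igf2 encodes the second ligand, which is abundant before birth and low in most adult rat tissues. Its probe sets disagreed. X17012mRNA_s_at read 2061, 2215, 626 and 1241 in SHR collateral arteries and 754, 1496, 1697 and 770.3 in SHR control arteries, against 3259, 2474, 2243 and 1034 in WKY collateral arteries and 4055, 1869.6 and 2145 in WKY control arteries. In control arteries the 4 SHR arrays lay below all 3 WKY arrays, with a log2 difference of -1.20 ± 0.48 (adjusted p = 0.650), and the value was -0.86 without WKY control 1. In collateral arteries the groups overlapped, with -0.60 ± 0.44 (adjusted p = 0.718), and -0.22 without SHR collateral 3.

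The other tested Igf2 probe sets did not show that order. M17960_g_at read 1045, 1455, 3697 and 759 in SHR collateral arteries and 779, 1454, 1187 and 873 in SHR control arteries, against 1054, 1239, 1704 and 714 in WKY collateral arteries and 739, 1781 and 1441 in WKY control arteries. Its groups overlapped in both vessel types, with log2 differences of -0.25 ± 0.47 in control and 0.36 ± 0.43 in collateral arteries, and -0.10 in collateral arteries without SHR collateral 3, the highest array. M17960_at differed by -0.16 ± 0.58 in control and 0.37 ± 0.53 in collateral arteries, and by -0.01 in collateral arteries without SHR collateral 3. E00988mRNA_s_at differed by 0.26 ± 0.75 in control and 0.59 ± 0.69 in collateral arteries, and by -0.03 in collateral arteries without that array. The control differences of these 3 probe sets also changed sign with 1 array left out, to 0.01 for M17960_g_at without WKY control 2, 0.25 for M17960_at without WKY control 3 and -0.15 for E00988mRNA_s_at without SHR control 3. The 6 pairs of tested Igf2 probe sets had Spearman correlations of -0.19 to 0.718 over the 15 arrays. X16703_i_at and X16703_r_at, the Igf2 probe sets left out by the filter, were below their array's 20th percentile on 8 and 10 of 15 arrays. Their highest values, 768 and 815, were both on SHR collateral 3.

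Igf1r encodes the receptor for both ligands. L29232_at read 635, 1554, 1739.9 and 598 in SHR collateral arteries and 554, 982, 648 and 706 in SHR control arteries, against 580.1, 977, 1044 and 859.7 in WKY collateral arteries and 675, 615 and 1048 in WKY control arteries. The groups overlapped throughout, with 2 of 8 SHR arrays, both collateral, above every WKY array. The strain difference was 0.25 ± 0.38 in collateral arteries and -0.10 ± 0.41 in control arteries, both on the log2 scale. It was -0.01 in collateral arteries without SHR collateral 3 and 0.13 in control arteries without WKY control 3. M27293_s_at read 909.7, 221, 533 and 455 in SHR collateral arteries and 350.3, 477, 500.1 and 633 in SHR control arteries, against 379, 507, 717 and 193 in WKY collateral arteries and 433, 476 and 393 in WKY control arteries, again with full overlap, and differed by 0.22 ± 0.46 in collateral and 0.15 ± 0.49 in control arteries. The collateral value was 0.16 without SHR collateral 3 and -0.14 without WKY collateral 4, and the control value 0.01 without SHR control 4. The correlation of both Igf1r probe sets over the 15 arrays was a Spearman value of 0.157. For L29232_at the 95% interval of the strain difference ran from -0.55 to 1.05 in collateral and from -0.96 to 0.76 in control arteries, and for M27293_s_at from -0.74 to 1.18 and from -0.89 to 1.19.

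**Figure D2:**
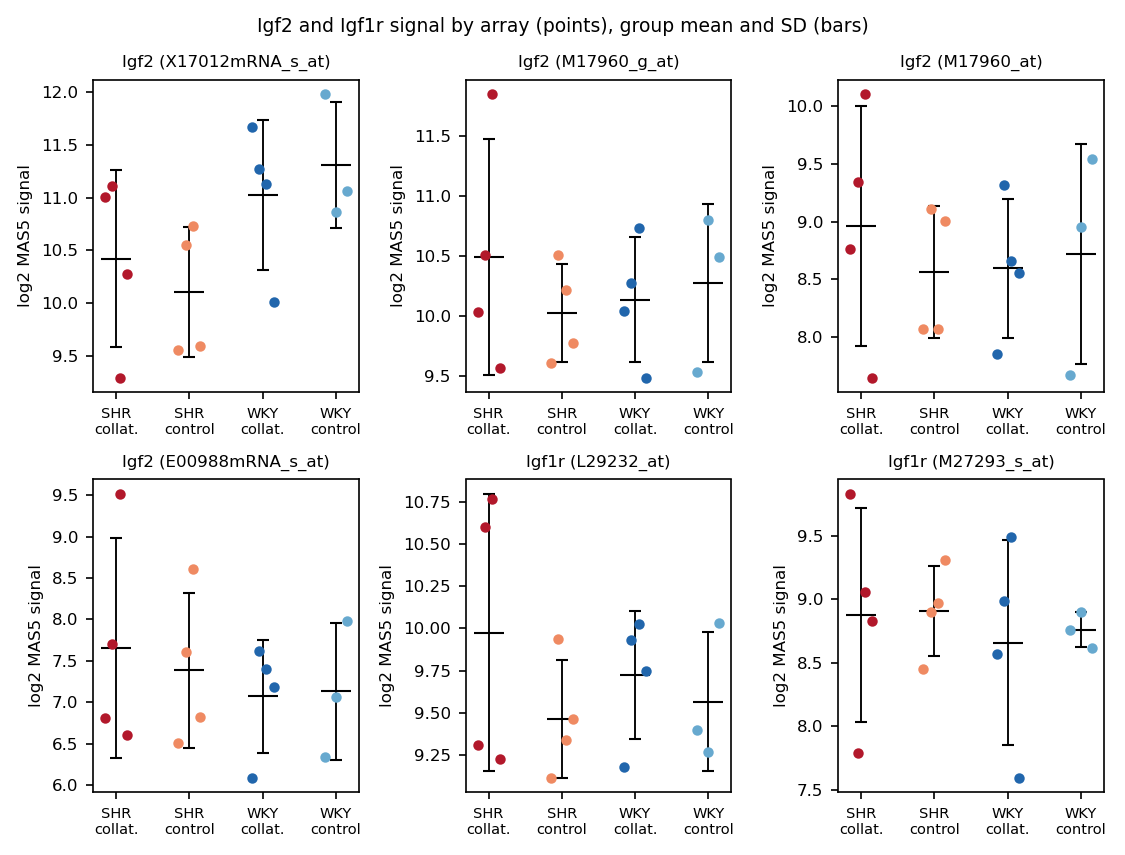
Log2 MAS5 signal (vertical axis) of 4 Igf2 and 2 Igf1r probe sets in the 4 groups (horizontal axis), with 1 point per array and bars for the mean and SD. X17012mRNA_s_at is lower in SHR control than in WKY control arteries without overlap, and the strains overlap in each of the other 5 panels.

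Igfbp5 encodes a binding protein that attaches to extracellular matrix and is known in smooth muscle and fibroblasts. Its probe set rc_AI029920_s_at had the largest log2 strain differences among the 18. It read 845, 534, 1459.5 and 383 in SHR collateral arteries and 762, 1741, 745 and 531 in SHR control arteries, against 197, 165, 891 and 51.4 in WKY collateral arteries and 193, 237 and 203 in WKY control arteries. In log2 units its mean was 9.47 ± 0.84 in SHR collateral arteries (SD, n = 4) and 9.73 ± 0.73 in SHR control arteries (SD, n = 4), against 7.62 ± 1.69 in WKY collateral arteries (SD, n = 4) and 7.72 ± 0.15 in WKY control arteries (SD, n = 3). In control arteries the lowest SHR array was above the highest WKY array, whereas in collateral arteries WKY collateral 3 lay within the SHR range and the other 3 WKY arrays lay below it. The log2 difference was 2.02 ± 0.71 in control arteries (adjusted p = 0.551), 4.05-fold, and 1.85 ± 0.66 in collateral arteries (adjusted p = 0.517), 3.61-fold. Single arrays moved the collateral value, to 1.50 without SHR collateral 3, 2.58 without WKY collateral 3 and 1.21 without WKY collateral 4, the lowest. The Igfbp5 probe set M62781_at overlapped between strains, with 0.59 ± 0.80 in control and 0.25 ± 0.74 in collateral arteries, and -0.32 in collateral arteries without SHR collateral 3. It had low signal, at or above its array's 40th percentile on only 3 of 15 arrays and below the 20th on 2. Its control difference was -0.04 without WKY control 1. Over the 15 arrays its Spearman correlation with rc_AI029920_s_at was 0.639. The untested rc_AI070577_at was below the 20th percentile on 8 of 15 arrays.

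Igfbp6 encodes a binding protein with a strong preference for IGF-2 over IGF-1. Its probe set M69055_at read 1463, 2485, 2800.2 and 1747 in SHR collateral arteries and 2965, 3823, 4932 and 2096 in SHR control arteries, against 1387, 1779, 1182 and 1178 in WKY collateral arteries and 1894, 1483 and 1868 in WKY control arteries. In log2 units its mean was 11.00 ± 0.44 in SHR collateral arteries (SD, n = 4) and 11.68 ± 0.53 in SHR control arteries (SD, n = 4), against 10.41 ± 0.28 in WKY collateral arteries (SD, n = 4) and 10.76 ± 0.20 in WKY control arteries (SD, n = 3). In control arteries every SHR array was above every WKY array, and the log2 difference was 0.92 ± 0.32 (adjusted p = 0.527), 1.89-fold. In collateral arteries 2 of the 4 SHR arrays lay within the WKY range, and the difference was 0.59 ± 0.29 (adjusted p = 0.647), or 0.44 without SHR collateral 3.

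Igfbp3 encodes the main carrier of IGFs in blood, which is also made in the vessel wall. Its probe set M31837_at read 474, 588, 1073 and 426 in SHR collateral arteries and 719.5, 844, 631 and 551 in SHR control arteries, against 355, 289, 459.5 and 344 in WKY collateral arteries and 154, 525 and 484 in WKY control arteries. The SHR control arrays all lay above the WKY control arrays, with a log2 difference of 1.00 ± 0.46 (adjusted p = 0.730), and the value was 0.43 without WKY control 1, whose signal of 154 was the lowest. In collateral arteries the lowest SHR array lay within the WKY range, and the difference was 0.74 ± 0.42 (adjusted p = 0.678), or 0.46 without SHR collateral 3. The second Igfbp3 probe set, rc_AI009405_s_at, overlapped between strains, with 0.94 ± 0.81 in control and 0.73 ± 0.75 in collateral arteries, and 0.32 in collateral arteries without SHR collateral 3. It had low signal, at or above its array's 40th percentile on only 5 of 15 arrays and below the 20th on 1. Its control difference was 0.38 without WKY control 1, and its collateral difference 1.39 without SHR collateral 4. The Igfbp3 probe sets correlated with each other at a Spearman value of 0.75 over the 15 arrays.

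**Figure D3:**
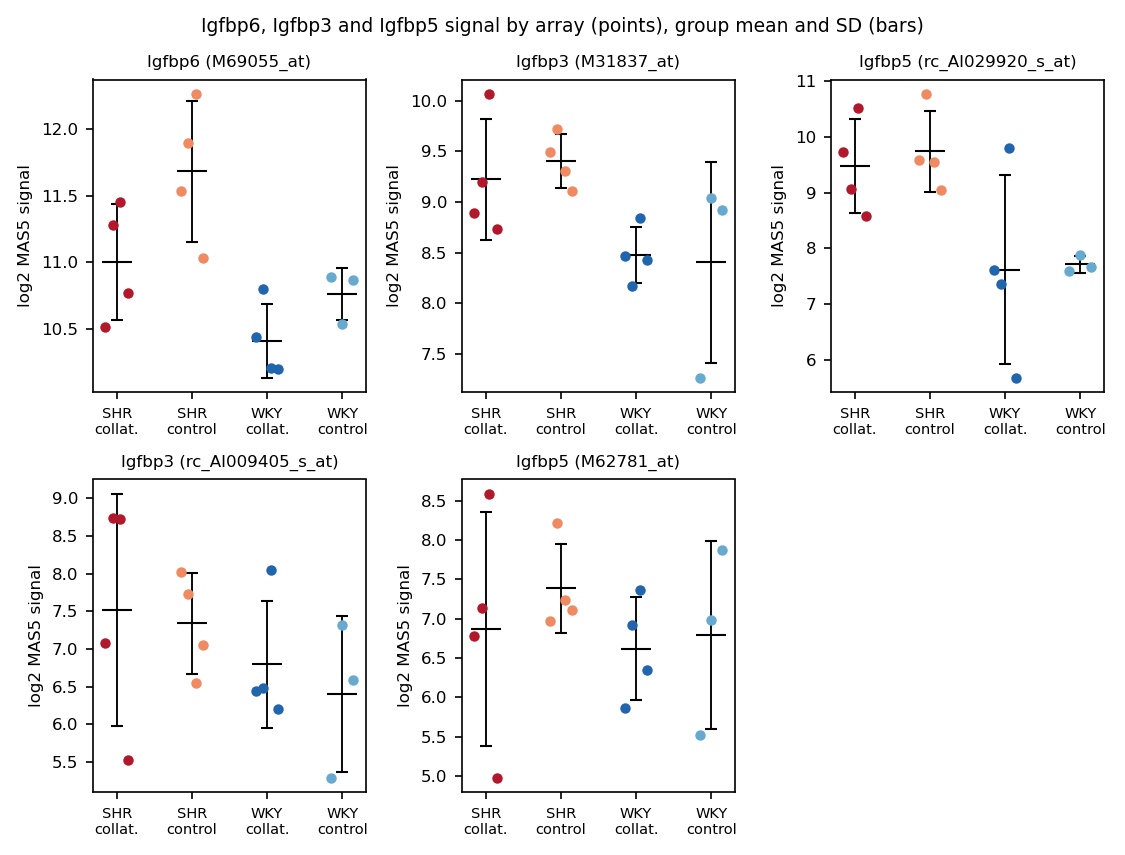
Log2 MAS5 signal (vertical axis) of the Igfbp6 probe set and of 2 probe sets each for Igfbp3 and Igfbp5 in the 4 groups (horizontal axis), with 1 point per array and bars for the mean and SD. In control arteries, M69055_at, M31837_at and rc_AI029920_s_at are higher in all 4 SHR arrays than in all 3 WKY arrays, and the other panels overlap.

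Igfbp2, a binding protein abundant in fetal tissues, had overlapping strains in both vessel types. A09811cds_s_at ran from 54.8 to 367 in SHR collateral, 92.6 to 138 in SHR control, 97.9 to 286 in WKY collateral and 93.6 to 366 in WKY control arteries. It differed between strains by 0.44 ± 0.66 in collateral and -0.56 ± 0.71 in control arteries. The collateral value was 0.16 without SHR collateral 3 and 1.07 without SHR collateral 4, and the control value 0.01 without WKY control 3. M91595exon_s_at differed by 0.17 ± 0.68 in collateral arteries, or 0.01 without SHR collateral 3 and -0.44 without SHR collateral 2. In control arteries it differed by 0.38 ± 0.74, or 0.09 without WKY control 2. The untested J04486_at reached its array's 40th percentile on only 2 of 15 arrays, and its highest value, 568, was on SHR collateral 3. Igfbp1, mainly a product of the liver, read 34.6 to 135 and was below its array's 20th percentile on 11 of 15 arrays, so only its low level can be stated.

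A comparison added after seeing the data averaged the strain difference over both vessel types, with the same fit. Limma called 0 of the 18 IGF probe sets at an adjusted p under 0.05, against 0.891% of all tested probe sets. With array weights, which count arrays of wider spread for less, 4 were called, and leaving out 1 array at a time gave 0 or 1. At an unadjusted p under 0.05 there were 8, or 44.4%, against 11.9% of all: 7 were higher in SHR and 1 was lower. The smallest adjusted p among the 18 was 0.0713, for Igfbp5 rc_AI029920_s_at, with a log2 difference of 1.93 ± 0.48, 3.82-fold. All 8 SHR arrays read above the WKY median for it, and 6 of 7 WKY arrays below every SHR array. Igf1 X06107_i_at differed by 1.35 ± 0.36 (adjusted p = 0.0896) and Igfbp6 M69055_at by 0.76 ± 0.22 (adjusted p = 0.117). Igfbp3 M31837_at differed by 0.87 ± 0.31 (adjusted p = 0.240), with 6 of 8 SHR arrays above every WKY array. Igf1 M15481_g_at differed by 0.90 ± 0.32 (adjusted p = 0.245) and Igf1 D00698_s_at by 0.96 ± 0.35 (adjusted p = 0.254). Igf1 X06107_r_at differed by 0.82 ± 0.36 (adjusted p = 0.379), or 0.58 without SHR control 1. Igf2 X17012mRNA_s_at was the 1 lower in SHR, by -0.90 ± 0.32 (adjusted p = 0.245), with none of the 8 SHR arrays above the WKY median. Without SHR collateral 3 the differences of Igfbp5, Igf1 X06107_i_at and Igfbp6 were 1.76, 1.20 and 0.68, and again 0 of 18 were called. Those of Igf1 M15481_g_at, D00698_s_at and X06107_r_at were then 0.96, 1.15 and 0.84. Igfbp3 M31837_at then differed by 0.73 and Igf2 X17012mRNA_s_at by -0.71. Without WKY collateral 3 the Igfbp5 difference was 2.30 (adjusted p = 0.0111), without SHR collateral 4 it was 2.08 (adjusted p = 0.0445), and without SHR control 4 the Igfbp6 difference was 0.87 (adjusted p = 0.0488).

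**Figure D4:**
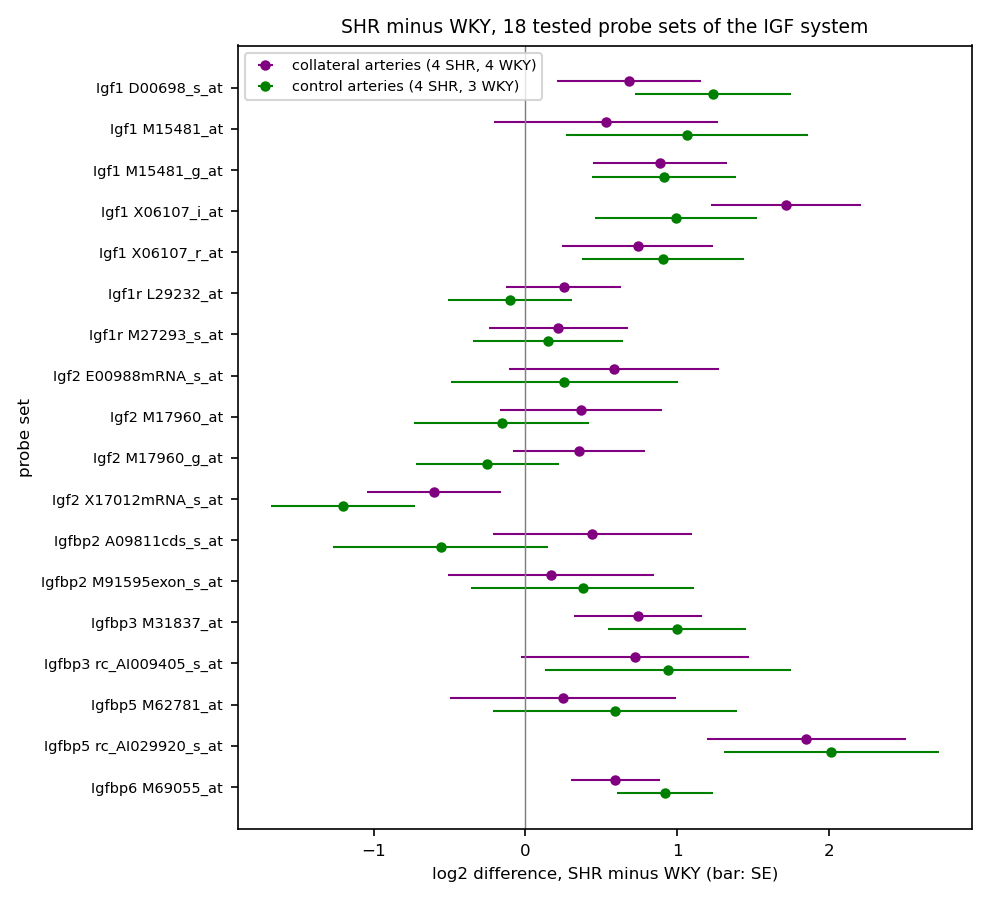
Log2 difference, SHR minus WKY (horizontal axis; points, with SE as bars), of the 18 tested IGF probe sets (vertical axis), in collateral arteries (4 SHR and 4 WKY arrays) and control arteries (4 SHR and 3 WKY arrays). In collateral arteries 17 of 18 points (94.4%) lie above 0, against 58.9% of all tested probe sets. In control arteries 13 of 18 (72.2%) do, against 51.6% of all. Without SHR collateral 3, 6 of the 18 collateral differences change sign. None of the 18 passed an adjusted p under 0.05.

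Signs of cell make-up and RNA quality also differed between the strains. Of 13 macrophage marker genes, 8 were on the array, and none was mostly below the 20th percentile. Their summed signal ran from 18687 to 33210 in SHR collateral and 7598 to 47546 in SHR control arteries, against 6007 to 20154 in WKY collateral and 4511 to 6859 in WKY control arteries. The median log2 strain difference of its 13 tested probe sets was 1.38 in collateral and 1.23 in control arteries. For 8 of 11 fibroblast markers the sums ran from 248555 to 410990 and 337687 to 512484 in SHR collateral and control arteries, against 279935 to 361164 and 347031 to 427149 in WKY collateral and control arteries, and the median difference was 0.22 in collateral and 0.20 in control arteries. For 8 of 10 adipocyte markers, of which only Plin1 was mostly below the 20th percentile, the sums ran from 10057 to 48464 and 8220 to 81563 in SHR, against 5482 to 18206 and 9912 to 38264 in WKY, in the same order of vessels, and the median difference was 1.22 and 0.48. Smooth muscle markers differed by a median of -0.59 in collateral and -0.36 in control arteries. For 9 of 13 endothelial markers, none mostly below the 20th percentile, the sums ran from 2312 to 6046 in SHR collateral and 2482 to 3903 in SHR control arteries, against 3091 to 9564 in WKY collateral and 5080 to 7707 in WKY control arteries, without overlap in control arteries. Yet the 13 endothelial probe sets were split, with 7 higher in SHR in collateral and 6 in control arteries. Their median log2 strain difference was 0.09 in collateral and -0.36 in control arteries. Among them, that for Icam2, an adhesion molecule, was lower in SHR by -3.62 ± 0.61 in control arteries (adjusted p = 0.0434). Averaged over vessels, Icam2 was lower by -2.79 ± 0.42 (adjusted p = 0.00454). For 9 of 10 mast cell markers, of which only Mcpt1 was mostly below the 20th percentile, the sums ran from 3836 to 9058 in SHR collateral and 4458 to 7521 in SHR control arteries, against 2450 to 4405 in WKY collateral and 2975 to 4545 in WKY control arteries. The mast cell chymase Cma1 was higher in SHR by 1.19 ± 0.27 averaged over vessels (adjusted p = 0.0376), as were the macrophage probe sets X13044_at and X13044_g_at for Cd74 and X71127_at for C1qb, by 3.52 ± 0.61, 3.26 ± 0.53 and 2.21 ± 0.47 (adjusted p = 0.00643, 0.00484 and 0.0269). The log2 excess of 3' over 5' probe set signal, averaged over actin and Gapdh, grows as RNA is degraded or cut short. It was 1.64 to 2.06 in SHR collateral and 1.71 to 2.31 in SHR control arteries, against 2.10 to 2.62 in WKY collateral and 2.07 to 2.38 in WKY control arteries. The part of these in the IGF differences was not tested.

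The promoters of Igf1, Igfbp3, Igfbp5 and Igfbp6 are shown because every tested probe set of these 4 genes had a higher mean in SHR in both vessel types. Each stretch of 300 bases runs from 250 before to 50 after the RefSeq start in the GRCr8 assembly, written 5' to 3' on the gene's strand. Capitals mark each match to the E box CANNTG, a motif whose reverse complement is itself. The Igf1 promoter lies at chr7:24172282-24172581 on the plus strand, Igfbp3 at chr14:86277895-86278194 on the minus strand, Igfbp5 at chr9:81914138-81914437 on the minus strand and Igfbp6 at chr7:135154669-135154968 on the plus strand.
Igf1: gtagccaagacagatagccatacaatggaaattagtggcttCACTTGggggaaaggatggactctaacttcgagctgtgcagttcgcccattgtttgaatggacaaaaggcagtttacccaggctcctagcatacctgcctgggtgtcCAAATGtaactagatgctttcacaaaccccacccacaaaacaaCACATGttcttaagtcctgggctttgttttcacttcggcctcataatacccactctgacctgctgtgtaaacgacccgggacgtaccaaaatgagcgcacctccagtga
Igfbp3: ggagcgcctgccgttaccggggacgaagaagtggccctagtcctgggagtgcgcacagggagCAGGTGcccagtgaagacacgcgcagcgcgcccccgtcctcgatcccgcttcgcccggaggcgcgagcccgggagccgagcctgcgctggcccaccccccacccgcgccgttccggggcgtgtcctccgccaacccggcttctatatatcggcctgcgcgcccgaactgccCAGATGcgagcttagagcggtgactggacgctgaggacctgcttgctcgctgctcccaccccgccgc
Igfbp5: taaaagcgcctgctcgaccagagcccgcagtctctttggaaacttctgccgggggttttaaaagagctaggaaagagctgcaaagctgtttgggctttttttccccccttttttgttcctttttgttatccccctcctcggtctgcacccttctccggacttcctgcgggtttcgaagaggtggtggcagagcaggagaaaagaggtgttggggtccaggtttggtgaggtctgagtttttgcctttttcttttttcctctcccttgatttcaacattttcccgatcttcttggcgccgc
Igfbp6: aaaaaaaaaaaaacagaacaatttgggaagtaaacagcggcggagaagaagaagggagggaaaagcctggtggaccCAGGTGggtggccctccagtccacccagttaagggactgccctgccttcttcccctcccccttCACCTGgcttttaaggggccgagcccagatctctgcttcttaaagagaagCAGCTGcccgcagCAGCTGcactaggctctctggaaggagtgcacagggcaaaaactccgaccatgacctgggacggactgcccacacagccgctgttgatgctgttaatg
E boxes were found at -209, -102 and -59 in Igf1, -188 and -17 in Igfbp3 and -174, -111, -61 and -48 in Igfbp6, counted from the start to the first base of the match, and none in Igfbp5. Of 33469 RefSeq promoters of this length, 72.1% hold an E box. On both strands these 4 promoters held no TATA box (TATAAA, in 14.2% of all promoters), no GC box (GGGCGG, in 33.1%), no CCAAT box (CCAAT, in 37.5%) and no AP-1 motif (TGANTCA, in 7.33%). Their GC content was 48.3% for Igf1, 71.7% for Igfbp3, 50.7% for Igfbp5 and 55.3% for Igfbp6, against a median of 51.7% over all promoters. A match is a run of letters and not a binding site. Igfbp1 and Igfbp3 are neighbours on chromosome 14 among protein-coding genes, as are Igfbp2 and Igfbp5 on chromosome 9.

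Collateral arteries were set against control arteries to ask what growth under extra flow changed. The log2 differences of the 18 IGF probe sets lay between -0.68 and 0.85 in SHR and between -0.70 and 0.40 in WKY. Their standard errors were 0.29 to 0.75 in SHR and 0.32 to 0.81 in WKY, so larger differences are not excluded. Igfbp6 alone of the 18 reached an unadjusted p under 0.05, in SHR. In SHR, limma called 0 of 18, against 0% of all tested probe sets. The 1 probe set at an unadjusted p under 0.05 is 5.56% of the 18, against 3.76% of all, and 0 of 18 had groups that did not overlap, against 1.72% of all. In WKY, limma called 0 of 18, against 0% of all, with 0 at an unadjusted p under 0.05, against 3.16% of all, and 0 without overlap, against 6.7% of all. The median log2 difference of the 18, collateral minus control, was -0.11 in SHR, or -0.25 without SHR collateral 3, and -0.10 in WKY.

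Igfbp6 M69055_at, with the signals given above, was lower in SHR collateral than in SHR control arteries by -0.68 ± 0.29 on the log2 scale (adjusted p = 0.949), or 1.60-fold lower, with overlap between the groups. The value was -0.83 without SHR collateral 3 and -0.49 without SHR control 3, the highest array. In WKY the same difference was -0.35 ± 0.32 (adjusted p = 1.00), also with overlap. Igf1 M15481_g_at differed by -0.49 ± 0.44 in SHR, or -0.37 without SHR collateral 3 and -0.16 without SHR collateral 2, and by -0.46 ± 0.48 in WKY, or -0.08 without WKY control 1. Igf1 X06107_i_at differed by 0.03 ± 0.50 in SHR, or -0.27 without SHR collateral 3, and by -0.70 ± 0.54 in WKY, or -0.11 without WKY collateral 3. Igfbp2 A09811cds_s_at differed by 0.85 ± 0.66 in SHR, where its 4 collateral arrays ran from 54.8 to 367 around the control arrays, and by -0.15 ± 0.71 in WKY. The SHR value was 0.56 without SHR collateral 3 and 1.48 without SHR collateral 4, the lowest array, and the WKY value was 0.42 without WKY control 3. Igf1r L29232_at differed by 0.51 ± 0.38 in SHR, or 0.25 without SHR collateral 3, and by 0.16 ± 0.41 in WKY. Igfbp3 M31837_at and Igfbp5 rc_AI029920_s_at differed by -0.18 ± 0.42 and -0.26 ± 0.66 in SHR, and by 0.07 ± 0.46 and -0.10 ± 0.71 in WKY. The SHR values were -0.46 and -0.61 without SHR collateral 3. The Igfbp5 value in SHR was 0.08 without SHR control 2. In WKY they changed sign, to -0.50 for Igfbp3 without WKY control 1 and to 0.55 for Igfbp5 without WKY collateral 4.

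**Figure D5:**
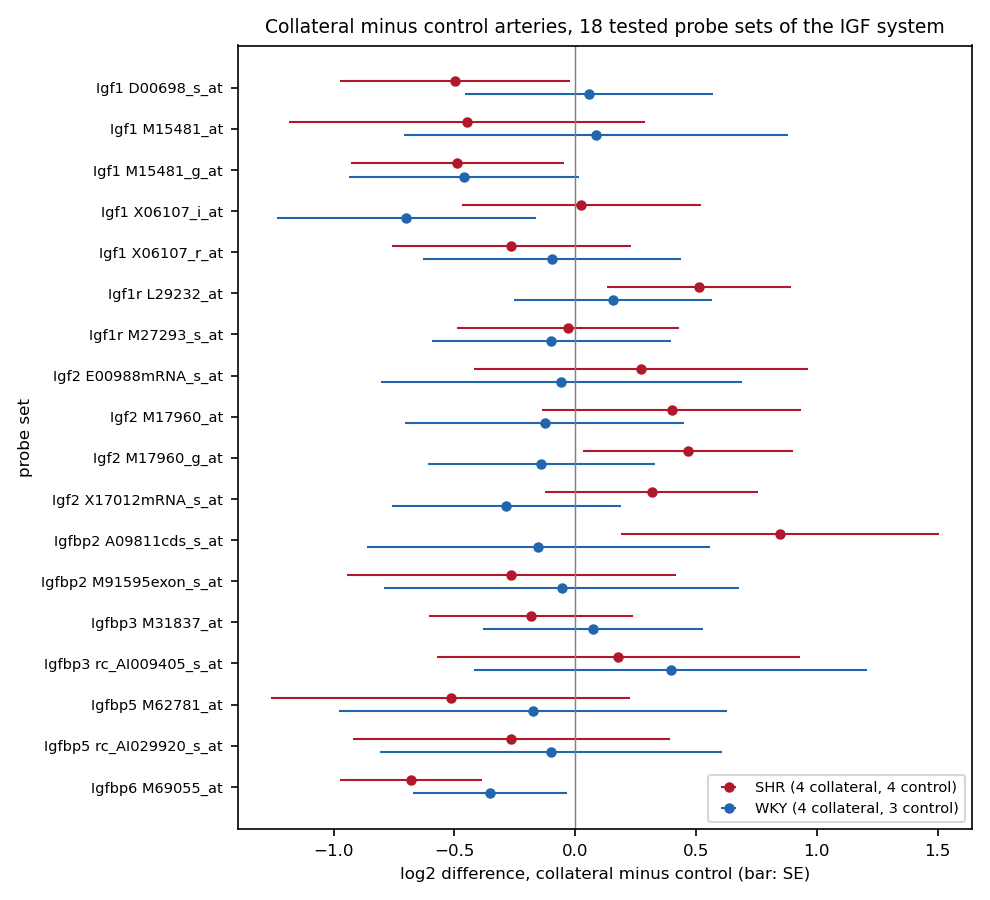
Log2 difference, collateral minus control arteries (horizontal axis; points, with SE as bars), of the 18 tested IGF probe sets (vertical axis), in SHR (4 collateral and 4 control arrays) and WKY (4 collateral and 3 control arrays). Most bars cross 0, and the Igfbp6 difference in SHR is -0.68 ± 0.29.

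Whether the collateral difference itself differed between strains was tested in the same fit. Limma called 0 of 18, against 0% of all tested probe sets, and 0 were at an unadjusted p under 0.05, against 1.9% of all. The largest, SHR minus WKY, was 1.00 ± 0.97 for Igfbp2 A09811cds_s_at (adjusted p = 1.00), followed in size by 0.72 ± 0.73 for Igf1 X06107_i_at. For Igfbp6 it was -0.33 ± 0.43. These 3 values were 0.72, 0.43 and -0.48 without SHR collateral 3. The first was 0.43 without WKY control 3, the second 0.13 without WKY collateral 3 and the third -0.13 without SHR control 3. The standard errors lay between 0.43 and 1.11 for the 18 probe sets. At this precision, differences of about 1 standard error, such as the largest, could not be told from 0.

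Genes around the IGF system were taken from 8 lists (other receptors, substrates and adaptors, the PI3K and Akt branch, the MAP kinase branch, the growth hormone axis, regulators of the binding proteins, their relatives, and insulin family hormones), with 93 tested probe sets of 53 genes. Limma called 0 of 93 in each comparison. Of all tested probe sets it called 0.0307% between strains in control arteries, 0.891% averaged over vessels and 0% in the other comparisons. At an unadjusted p under 0.05, 2 were higher and 3 lower in SHR than in WKY collateral arteries, and 1 was higher and 3 were lower in SHR than in WKY control arteries. Between collateral and control arteries 5 were higher and 1 lower in SHR, and 3 higher and 0 lower in WKY. For the difference between those changes there were 1 and 1, and averaged over vessels 1 higher and 5 lower in SHR. The shares of all tested probe sets at that p, in the same order of comparisons, were 7.62%, 6.46%, 3.76%, 3.16%, 1.9% and 11.9%. The median log2 difference of the 93 between strains was 0.12 in collateral and -0.03 in control arteries. Over all these comparisons it lay between -0.03 and 0.17. For the 18 IGF probe sets the median between strains was 0.56 in collateral arteries, or 0.16 without SHR collateral 3, and 0.75 in control arteries. For the 93 no median without that array was taken.

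The list of relatives of the binding proteins held 16 gene names, some of them older and newer names of the same gene. Of these, 2 were on the array and tested, Esm1 and Ccn1. Esm1 encodes endocan, a proteoglycan of endothelial cells whose N-terminal part resembles the IGF binding proteins. It ran from 1573 to 2924 in SHR collateral and 642 to 1884 in SHR control arteries, against 3324 to 8275 in WKY collateral and 1003 to 2364 in WKY control arteries. It was lower in SHR than in WKY collaterals without overlap, by -1.40 ± 0.39 (adjusted p = 0.328), or -1.35 without SHR collateral 3, and higher in WKY collateral than control arteries without overlap, by 1.995 ± 0.42 (adjusted p = 1.00). Ccn1, the matricellular protein CYR61 with an IGF binding protein domain, ran from 238 to 4079 in SHR collateral and 926 to 3868 in SHR control arteries, against 2947 to 12124 in WKY collateral and 4268 to 16460.2 in WKY control arteries. Its difference was -1.93 ± 0.70 in collateral (adjusted p = 0.517) and -1.85 ± 0.75 in control arteries (adjusted p = 0.669), and -1.89 ± 0.51 averaged over both (adjusted p = 0.0930). Without SHR collateral 3 the Ccn1 difference was -1.14 in collateral arteries and -1.50 averaged, and the lowest adjusted p of the average with 1 array left out was 0.0374, without SHR collateral 2. Its signal was lower in SHR, where Igf1, Igfbp3, Igfbp5 and Igfbp6 read higher.

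Downstream of the receptor, the kinase gene Akt1 (D30040_at) was higher in SHR than in WKY collaterals by 1.35 ± 0.52 (adjusted p = 0.558), and its collateral difference was larger in SHR than in WKY by 1.79 ± 0.76 (adjusted p = 1.00). Both Akt1 values were smaller without SHR collateral 3, at 1.07 and 1.50. Eif4ebp1 holds back translation until mTOR releases it. Its probe set U05014_g_at was higher in SHR than in WKY control arteries by 0.70 ± 0.26 (adjusted p = 0.604). There U05014_at had mean log2 signals of 9.47 in SHR and 8.88 in WKY. U05014_at was higher in WKY collateral than control arteries by 0.96 ± 0.36 (adjusted p = 0.9999). There U05014_g_at had means of 11.11 in collateral and 10.76 in control arteries. Grb14, an adaptor that inhibits insulin receptor signalling, was lower in SHR averaged over vessels by -0.89 ± 0.30 (adjusted p = 0.222), or -0.86 without SHR collateral 3, and by -1.11 without SHR control 4 (adjusted p = 0.0386). In SHR collateral against control arteries, Itgav, an integrin subunit, differed by 1.99 ± 0.76, Crk, an adaptor, by 1.69 ± 0.76, and Bad, a promoter of cell death that Akt phosphorylates, by -1.10 ± 0.44, all with an adjusted p of 0.949. The differences of Itgav, Crk and Bad were 1.66, 1.34 and -0.44 without SHR collateral 3. Klk1, a kallikrein protease measured by a probe set (suffix _f) that its gene family can share, differed by 1.26 ± 0.52 between WKY collateral and control arteries, and by -1.60 ± 0.71 between the SHR and the WKY changes, or -1.82 without SHR collateral 3. The growth hormone releasing hormone gene Ghrh read 34.9 to 68.5 in SHR control and 86.2 to 438 in WKY control arteries, a difference of -2.16 ± 0.93 at low signal. Igfals, the liver protein that completes the circulating IGF complex, had a difference between changes of 1.88 ± 0.93 (adjusted p = 1.00), or 1.46 without SHR collateral 3 and 1.22 without SHR control 3.

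The genes with the most similar pattern were found by Spearman correlation of each gene's probe set of highest mean signal with every tested probe set of another gene, over the 15 arrays, which share strain, vessel and array quality. For Igf1 M15481_g_at they were Slc22a3, an organic cation transporter, at 0.925, Efemp1, a matrix glycoprotein, at 0.907 and Gamt, of creatine synthesis, at 0.904. Igf2 X17012mRNA_s_at was closest to Ehd4 at 0.85, Cx3cl1 at 0.843 and Map3k8 at 0.832, and Igf1r L29232_at to Pdyn at 0.904 and to Lamb2 and Serpina1fl1 at 0.90. Igfbp3 M31837_at and Igfbp5 rc_AI029920_s_at had the same closest gene, Gas7, at 0.911 and 0.868. Next came Gnai2 at 0.871 and Entpd2 at 0.857 for Igfbp3, and Cxcl14, a chemokine, at 0.861 and Trh at 0.857 for Igfbp5. Igfbp6 M69055_at was closest to Gstm2 at 0.818, Nfib at 0.811 and Sod3, the extracellular superoxide dismutase, at 0.807. Igfbp2 M91595exon_s_at was closest to Il6r at 0.889 and to Gkn1 and RT1-DMb at 0.854. Without SHR collateral 3 these 21 values lay between 0.789 and 0.934. As the highest of many correlations over only 15 arrays, such values can be high for unrelated genes too. The level that such a search alone gives was not computed.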

How the data were processed

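Total RNA of mesenteric arteries was hybridised as biotin-labelled cRNA to a rat Affymetrix array with 8799 probe sets, on 15 arrays. The deposited values are 1 MAS5 signal per probe set and array, made by the authors with GCOS and MAS5, per the submitters' processing notes, whose versions these sources do not give. The authors had scaled each array to a common trimmed mean. Detection calls were not used. Array precision is limited by the number of arrays and by signal over background.

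Signals under 1, 12 in all, were raised to 1 before log2, and 59 control probe sets were left out. Testing required a signal at or above the 40th percentile of the array, on 3 or more arrays. Groups came from the sample titles. Limma 3.58.1 (R 4.3.3) fitted 1 mean per group to the 15 arrays. Its moderated test was two-sided and used a variance trend, with 11 residual and 7.19 prior degrees of freedom. Adjustment was by Benjamini-Hochberg over all 6512 tested probe sets, with a threshold of 0.05. The scripts were tested on simulated data. A group difference is called without overlap if every array of 1 group lies above every array of the other.

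The 5 planned comparisons set collateral beside control arteries within SHR and within WKY, SHR beside WKY within each vessel type, and tested the difference of the collateral changes. The strain difference averaged over vessel types was added after seeing the data. The members, pathway lists and marker lists were chosen with earlier results of these data known. All member probe sets are described. From the pathway lists, the 3 probe sets with the smallest p per comparison are named, and for each member's probe set of highest mean signal the 3 genes of highest Spearman correlation. Gene symbols came from the platform annotation: 7006 of 8740 probe sets had 1 symbol, 308 several and 1426 none, and only those with 1 were named. Promoters and gene order came from RefSeq tables of GRCr8, matched by symbol for all 9 genes. No probe sequences were used.

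Alternatives were quantile normalization, arrays set to equal medians, 68.5 added to each signal before log2, a floor at each array's 20th percentile, array weights, a filter at the 60th percentile or none, no trend of the variance, a fit to the compared arrays only, a fixed or random block on the replicate number, an adjusted p of 0.10, and each array left out, the last added after seeing the data for the named pathway probe sets.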

Additional observations from a re-analysis of the deposited data

Results flagged for a closer look

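Of 54 groups of 4 arrays of the tested IGF probe sets, 4 held an array whose gap to the nearest other array, divided by the group's range, both on log2 signals, was above 0.829, Dixon's limit for 4 values. Chance alone gives about 1 in 20 such groups. In SHR collateral arteries, array 3 read 1013 for Igf1 M15481_at, against 125 to 167 on the other 3, a ratio of 0.860. This is the array that stands apart from all others. In WKY collateral arteries, array 3 read 305 for Igfbp2 M91595exon_s_at, against 160.0 to 168, a ratio of 0.927, and 265 for Igfbp3 rc_AI009405_s_at, against 73.6 to 89.5, a ratio of 0.848. The same array had the highest Igfbp5 rc_AI029920_s_at signal of its group. In WKY collateral arteries, array 1 read 837 for Igf1 X06107_r_at, against 572 to 608, a ratio of 0.840. The causes were not tested.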

How the results depend on the processing

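In the 5 planned comparisons 0 of the IGF probe sets were called under every alternative run. For all tested probe sets, SHR against WKY control arteries (2 called) gave 0 with no filter and with the 60th percentile filter, 1 with no variance trend, 14 with array weights, 7 with only the arrays compared, 4 with the replicate block, fixed or random, and 0 to 6 with 1 array left out. SHR against WKY collateral arteries (0 called) gave 26 with array weights, 2 with only the arrays compared, 6 with the replicate block, fixed or random, 6 at an adjusted p of 0.10 and 0 to 7 with 1 array left out. Averaged over vessels (58 called), there were 31 with equal medians, 34 with no variance trend, 184 with array weights, 134 with the fixed and 92 with the random replicate block, 119 at 0.10 and 30 to 101 with 1 array left out. Of IGF probe sets in that average (0 called), 4 were called with array weights, 2 with the fixed replicate block, 1 with the random one, 2 at 0.10, and 0 to 1 with 1 array left out: Igfbp6 without SHR control 4, and Igfbp5 rc_AI029920_s_at without SHR collateral 4 or without WKY collateral 3. The 4 were Igf1 D00698_s_at, M15481_g_at and X06107_i_at and Igfbp5 rc_AI029920_s_at, and the block called Igfbp5 rc_AI029920_s_at and Igfbp6. The causes were not tested.

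Of the 16 IGF differences at an unadjusted p under 0.05, 0 of 376 alternative values changed sign. As these 16 were picked by that p in the same data, sign changes were unlikely beforehand, and 8 are from the average over vessels. Among the other 92, 52 changed sign at least once, in 152 of 2180 values, the largest with a size of 0.59. Replicate numbers are not said to pair arrays. Residuals of the 21 pairs that share a number correlated by a median of 0.06 (-0.07 to 0.31), against -0.03 (-0.36 to 0.43) for the other 63 pairs. The correlation was above 0.1 for 9 of these 21 pairs and for 5 of the other 63. Of 15 arrays, 7 correlated best with their own number. Whether the numbers pair arrays is not settled by these values. With 3 or 4 arrays a group, the precision allows only large differences to pass.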
